A study of Homo sapiens with 6 samples.

Results

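A set of 10 named genes of long noncoding RNA was examined, namely LUCAT1, HOTAIRM1, MALAT1, NEAT1, GAS5, SNHG1, SNHG5, SNHG8, NORAD and CYTOR. They are 10 of the 32364 genes of the deposited table, found by matching Ensembl identifiers to symbols in GENCODE release 29, and all 10 have a row. LUCAT1 was chosen by its measured values, 0 in every control library and above 0 in every I13 library, so this pattern is given as a description and carries no test. The other 9 were set beside it as widely studied nuclear, myeloid, small nucleolar RNA (snoRNA) host and cytoplasmic transcripts.

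The cells are Kasumi-1, an acute myeloid leukemia line that carries the t(8;21) fusion of RUNX1 (AML1) with RUNX1T1 (ETO). Messenger RNA was sequenced from 3 libraries of control cells and 3 libraries of cells given 0.5 µM I13, an inhibitor of histone deacetylases (HDACs), each after 48 h. All 6 libraries come from this 1 line, and the labels do not say whether the replicates were separate cultures, so the spread and the p-values may be technical. The paper states that its sequencing figures represent 3 independent experiments, but does not tie the libraries to them. Of the lineage markers, MPO was between 10241 and 12450 FPKM (a fragment count scaled to exon length and to sequencing depth) and all 8 myeloid markers passed the minimum level. Of 8 markers of other cells with a row, COL1A1, ALB and PPBP were at 0 in every library. The 8 summed to between 21.5 and 27.3 FPKM in control and between 22.4 and 26.7 FPKM in I13, of which EPCAM alone held between 20.8 and 26.5 FPKM. The depth was between 16566742 and 17221345 fragments in control and between 15281052 and 16682550 in I13. Control replicate 3 and I13 replicate 2 stood apart from the other 4 libraries on the first principal component, which held 43.3% of the variance over 4133 genes, and results are therefore also given without them.

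Long noncoding RNAs are transcripts that code for no known protein. MALAT1 and NEAT1 stay in the nucleus, where MALAT1 gathers at speckles rich in splicing factors and NEAT1 is the scaffold of paraspeckles. The snoRNA hosts GAS5, SNHG1, SNHG5 and SNHG8 carry snoRNAs in their introns, and their spliced remainders are commonly short-lived through nonsense-mediated decay. LUCAT1 is known as a transcript induced by stress and by inflammatory signals in myeloid cells, HOTAIRM1 as a myeloid transcript of the HOXA cluster, NORAD as a cytoplasmic RNA with many PUMILIO sites, and CYTOR as a cytoplasmic RNA found in many cancers.

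The promoters of the members with the main results are shown first. RefSeq promoters (GRCh38.p14, 250 bases before to 50 bases after a start) were present for 8 of the 10 members and matched by symbol, all except NEAT1 and HOTAIRM1. The LUCAT1 promoter, at chr5:91314353-91314652 on the minus strand, is printed whole because the gene had no fragment in any control library. CYTOR is the only other member whose promoter held the same overlapping motifs, and its 40 bases before and 20 bases after the start, at chr2:87455387-87455446 on the plus strand, are printed beside it. Capitals mark the antioxidant response element core (TGANNNNGC) and the AP-1 site (TGANTCA), searched on both strands.

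LUCAT1: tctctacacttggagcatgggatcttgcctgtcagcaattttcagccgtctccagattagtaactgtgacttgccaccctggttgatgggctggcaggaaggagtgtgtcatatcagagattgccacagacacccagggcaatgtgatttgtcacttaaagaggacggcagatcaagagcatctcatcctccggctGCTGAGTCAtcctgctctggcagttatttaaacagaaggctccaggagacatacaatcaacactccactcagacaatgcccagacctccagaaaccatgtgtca

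CYTOR: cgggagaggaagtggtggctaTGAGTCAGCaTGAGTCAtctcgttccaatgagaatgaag

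In LUCAT1 the AP-1 letters began 52 bases before the start and lay inside an antioxidant core that began 54 bases before it. In CYTOR the AP-1 letters began 19 and 9 bases before the start, and the first of them lay inside an antioxidant core. Of all 35116 promoters of this length, 41.8% held the antioxidant core, 7.71% held the AP-1 letters and 1.36% held them overlapping in this way (TGANTCAGC). LUCAT1 held none of the other letters searched, which were the cyclic AMP half-site (TGACG, in 24.6% of promoters), the GAS site (TTCNNNGAA, 7.66%), the E-box (CACGTG, 7.26%), the CCAAT box (34.6%), the TATA box (TATAAA, 11.5%) and the GC box (GGGCGG, 45%). These matches describe the letters and not bound sites. The overlapping form was not among the motifs planned, so its share is a description only. GENCODE 29 has LUCAT1 reach up to 91314547 on its minus strand and CYTOR begin at 87454781. In both genes the RefSeq start and the marked letters thus lie inside the annotated span. The letters are upstream of the RefSeq start only, and other starts are not covered.

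The 4 snoRNA hosts are shown by 30 bases on each side of the start, because such hosts often begin with a run of C and T bases, as ribosomal protein genes do. Capitals mark the run of C and T that holds the RefSeq start. The windows are chr1:173869016-173869075 (minus strand) for GAS5, chr11:62855856-62855915 (minus) for SNHG1, chr6:85678704-85678763 (minus) for SNHG5 and chr4:118278732-118278791 (plus) for SNHG8.

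GAS5: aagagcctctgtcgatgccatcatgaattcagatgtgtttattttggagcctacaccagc

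SNHG1: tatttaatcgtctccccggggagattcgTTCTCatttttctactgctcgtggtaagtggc

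SNHG5: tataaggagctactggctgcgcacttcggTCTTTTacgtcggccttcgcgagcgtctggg

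SNHG8: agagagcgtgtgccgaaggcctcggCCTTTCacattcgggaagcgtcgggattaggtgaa

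SNHG5 and SNHG8 held a run of 6 bases across the start and SNHG1 a run of 5. The run began 1 base before the start in SNHG5, 2 bases before it in SNHG1 and 5 bases before it in SNHG8. In SNHG8 it thus lay mostly upstream, and only its last base was at the RefSeq start. Runs of at least 5 bases were present at 9.6% of all promoters. GAS5 held none at the RefSeq start used here, which lies outside the span that GENCODE 29 gives the gene, so its other starts are not covered.

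The level of each member, as FPKM and thus per length of exon, spanned a wide range. SNHG8 (mean over 6 libraries 92.5 FPKM) and GAS5 (82.7) were highest and ranked 4 and 5 by mean FPKM among the long noncoding RNA genes of the table. SNHG5 (57.9), NORAD (51.3), MALAT1 (41.0) and SNHG1 (27.7) followed at ranks 8, 10, 14 and 19. NEAT1 (5.29) was at rank 122, HOTAIRM1 (0.602) and CYTOR (0.451) were in the middle of all genes above 0, and LUCAT1 (0.0355) was higher than 18.3% of them. The ranges over libraries overlapped between the neighbours SNHG8 and GAS5, SNHG5 and NORAD, NORAD and MALAT1, and HOTAIRM1 and CYTOR, and did not overlap between the other neighbours in this order. The libraries were made with an mRNA kit, and the levels of MALAT1 and of the long form of NEAT1, which lack a usual poly(A) tail, count only the molecules that such a kit takes up.

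**Figure D1:**
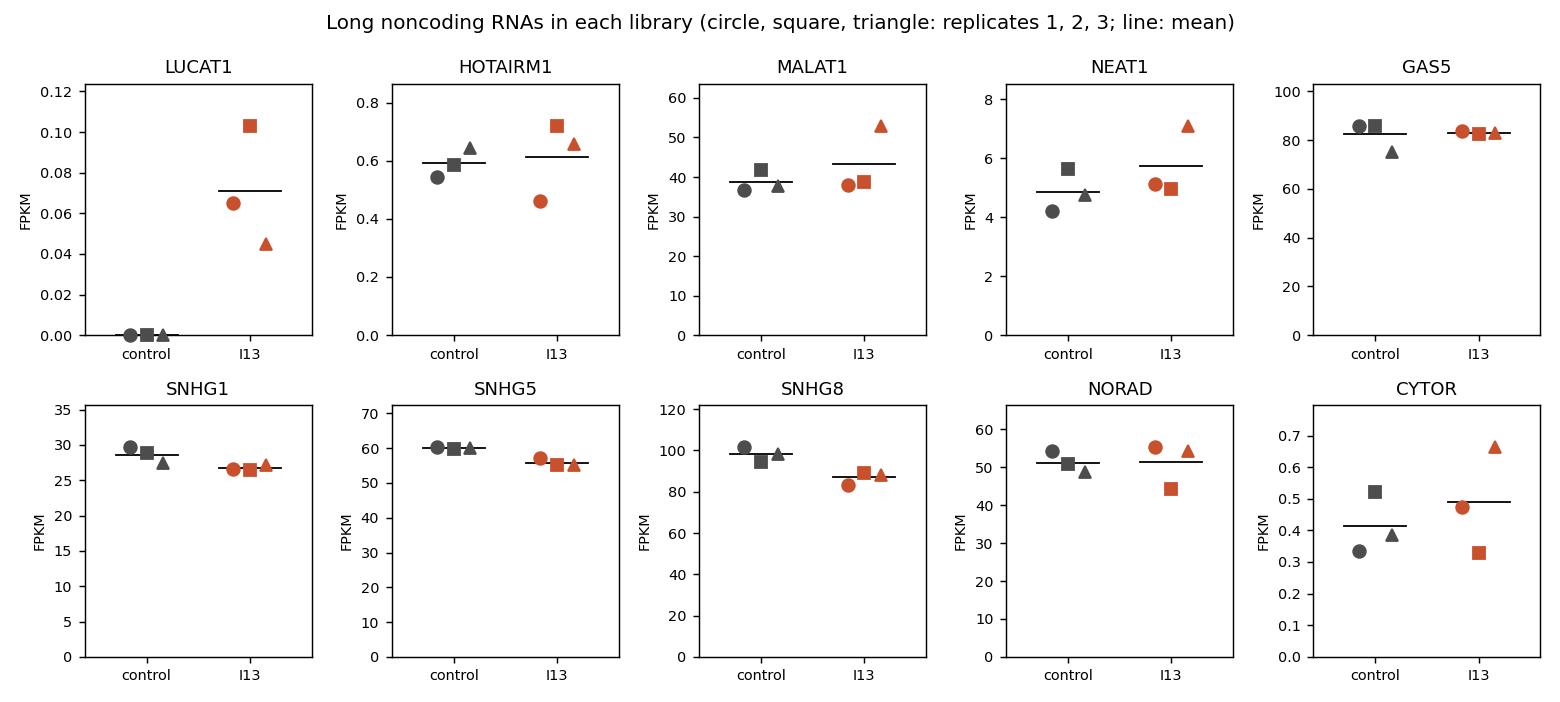
FPKM of each of the 10 long noncoding RNAs (linear y axis from 0, a separate scale per gene) in control (grey) and I13 (orange) libraries, with circles, squares and triangles for replicates 1, 2 and 3 and a line at the group mean. LUCAT1 is at 0 in all 3 control libraries, SNHG1, SNHG5 and SNHG8 do not overlap between groups, and MALAT1, NEAT1 and CYTOR are highest in I13 replicate 3.

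LUCAT1 was found in I13 libraries only, at a very low level. The annotation places it between 91054834 and 91314547 of chromosome 5 (GRCh38, minus strand) as an antisense gene. It was at 0 FPKM in control replicates 1, 2 and 3 and at 0.0649, 0.103 and 0.0451 FPKM in I13 replicates 1, 2 and 3. The groups do not overlap, since they were chosen so, and I13 replicate 2, a library that stood apart, was the highest.

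The number of fragments behind these values is open to a whole factor. For most genes FPKM, exon length and depth gave back whole fragments, but the GENCODE 29 exon length of LUCAT1, 16538 bases, did not. The 3 values fix the fragments only in the ratio 3 to 5 to 2. The smallest whole solution is 3, 5 and 2 fragments with an exon length of 2904 bases, and the solution nearest to the GENCODE 29 length is 18, 30 and 12 fragments with 17424 bases. Only 4 of the 55 LUCAT1 transcripts of GENCODE 29 have identifiers below ENST00000640000, an arbitrary mark for older entries, and their joined exons span 3686 bases. Of 762 genes with another length than in GENCODE 29 and at least 30 fragments in a library, 88.7% had a shorter one, but the median was 0.936 of the GENCODE 29 length and 77 were under 0.5 of it. LUCAT1 would be at 0.176 of that length in the smallest solution and at 0.878 with 15, 25 and 10 fragments, and slightly above it with 18, 30 and 12. A length found as the smallest whole solution can only be too short, so these shares do not settle the factor. The smallest solution is used here because it gives the lowest ratio between the groups.

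LUCAT1 had 10 fragments over the I13 libraries and 0 over the control libraries. Per depth this was 3.55-fold a floor set at 3 fragments over the control group. That ratio depends on the floor and takes the 10 fragments as counted, so it is not a lower limit. The lower end of the two-sided 95% counting interval, which uses no floor, was 2.38-fold. Both cover no more than counting error and are descriptions, because their sign was fixed when the gene was chosen. With the solution of 60 fragments they would be 21.3-fold and 16.8-fold, a choice added after the data had been seen. Without control replicate 3 and I13 replicate 2, 5 of the 10 fragments were left. Their ratio to the floor, kept at 3 fragments over fewer control libraries, was 1.84-fold. The two-sided 95% counting interval of a library, in the smallest solution, was 0.619 to 8.77 fragments for I13 replicate 1, 1.62 to 11.7 for replicate 2 and 0.242 to 7.22 for replicate 3, against 0 to 3.69 for a control library.

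The pattern that chose LUCAT1 was shared by other rare genes and was not more common in this direction. Among 27095 genes above 0 in a library, 61 were at 0 in every control library and above 0 in every I13 library (0.225%). The mirror pattern, above 0 in every control library and 0 in I13, was seen for 97 genes (0.358%). By the smallest fragment count in an I13 library, and then by the sum, LUCAT1 was number 4 of the 61. The genes most like it were AL135744.1 with 3, 3 and 5 fragments, AC004980.2 with 2, 4 and 5, GIPR, the receptor of a gut hormone, with 3, 2 and 6, and AC090159.1 and TTC24 with 2, 3 and 2 each. With 60 fragments LUCAT1 would have the highest sum of the 61, were the other genes left as they are. The median sum was 5 fragments in both sets. The highest sum was 11 among the 61 genes and 15 among the 97, for AL139041.1 with 4, 6 and 5 fragments in control and SPTB, a spectrin, with 4, 2 and 9. Like LUCAT1, SPTB had a length other than that of GENCODE 29, and its fragments are the smallest whole solution. By class, 21 of the 61 and 37 of the 97 were long noncoding RNA genes, beside 7464 of all 32364 genes of the table. The share among genes of a like low level was not examined, so these counts say nothing about the class.

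**Figure D2:**
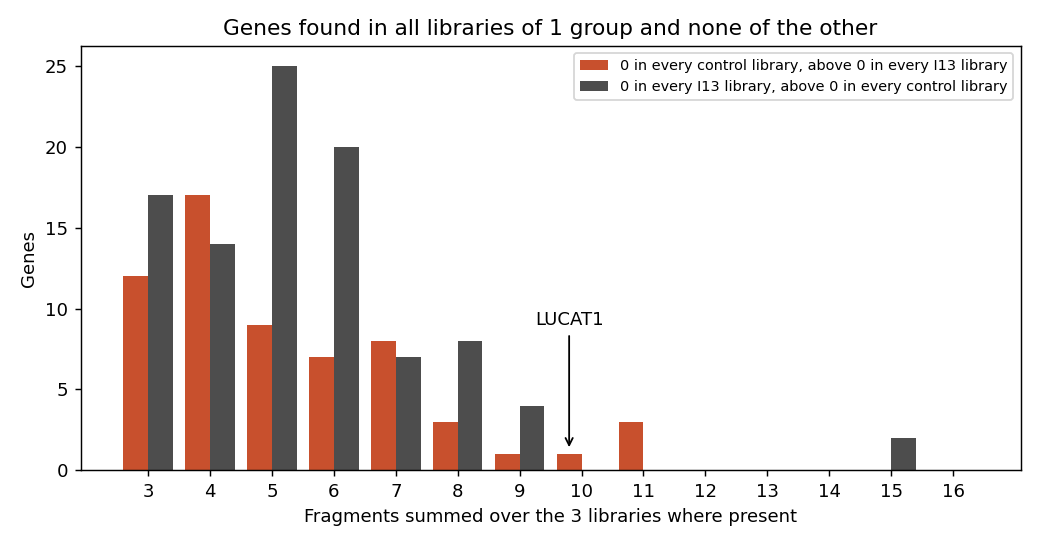
Number of genes (y axis) by the fragments summed over the 3 libraries where they were present (x axis), for the 61 genes at 0 in every control library (orange) and the 97 genes at 0 in every I13 library (grey). LUCAT1, at 10 fragments in its smallest whole solution, lies among few genes, with 3 genes of its own pattern above it at 11 and 2 genes of the mirror pattern at 15.

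The genes around LUCAT1 gave no call. ADGRV1, which overlaps its span on the other strand, was at 0.00515 FPKM or less in every library. The nearest protein-coding neighbours LYSMD3 and ARRDC3, an arrestin-domain gene, had log2 fold changes of 0.03 ± 0.13 (SE) and -0.07 ± 0.15 (SE), and POLR3G was at 0.08. None of the 8 genes tested of 9 listed around the locus passed an unadjusted p of 0.05, and their median log2 fold change was -0.05, beside 0.01 over all genes tested.

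Pathways known to act on LUCAT1 in other cells were read from lists. Of 15 targets of NRF2, the factor of the oxidative stress response, 0 passed the adjusted and 0 the unadjusted p, and 11 of 15 log2 fold changes were above 0, around a median of 0.08. TXN (thioredoxin) had 183, 192 and 182 FPKM in control and 198, 197 and 195 in I13, TXNRD1 a log2 fold change of 0.08 and FTL one of 0.11. Of 6 NRF2 partners and regulators none passed the unadjusted p, and KEAP1, MAFG and BACH1 had log2 fold changes of 0.12, 0.05 and -0.00. Of 12 interferon genes tested, 1 passed the unadjusted p as higher (IFI6, 0.46) and 2 as lower (IFIT3, -0.40, and OASL, -1.0), and 10 of 12 values were below 0, with STAT2 at -0.18. Of 9 early NF-κB target genes tested, 2 passed it as lower, TNFAIP3 (-0.27) and ICAM1 (-0.38), and 8 of 9 values were below 0. NFKBIA, NFKB1 and NFKB2 were at 0.09, -0.02 and -0.14. Over all genes tested, 5.14% passed the unadjusted p, 2.59% as lower. With lists this small the counts are a description. None of these genes passed the adjusted p by limma.

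For the 9 other members, the fit over all 18726 genes with a mean of at least 0.1 FPKM called none. By limma on log2(FPKM + 0.1) with Benjamini-Hochberg adjustment, 0 of 9 members passed an adjusted p of 0.05, as did 0% of all genes, and the smallest adjusted p of a member was 0.859. At an unadjusted p under 0.05 there were 2 of 9 members, beside 963 genes or 5.14% of all tested and 6.86% of 3163 long noncoding RNA genes. Both of them, SNHG5 and SNHG8, were lower in I13, a direction taken by 2.59% of all genes at this p. None of the 9 reached an absolute log2 fold change of 0.58. With voom on the recovered fragments 0.0362% of genes passed the adjusted p, and with a term for the 2 libraries that stood apart 0.63%, with 0 of the 9 members in either.

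**Figure D3:**
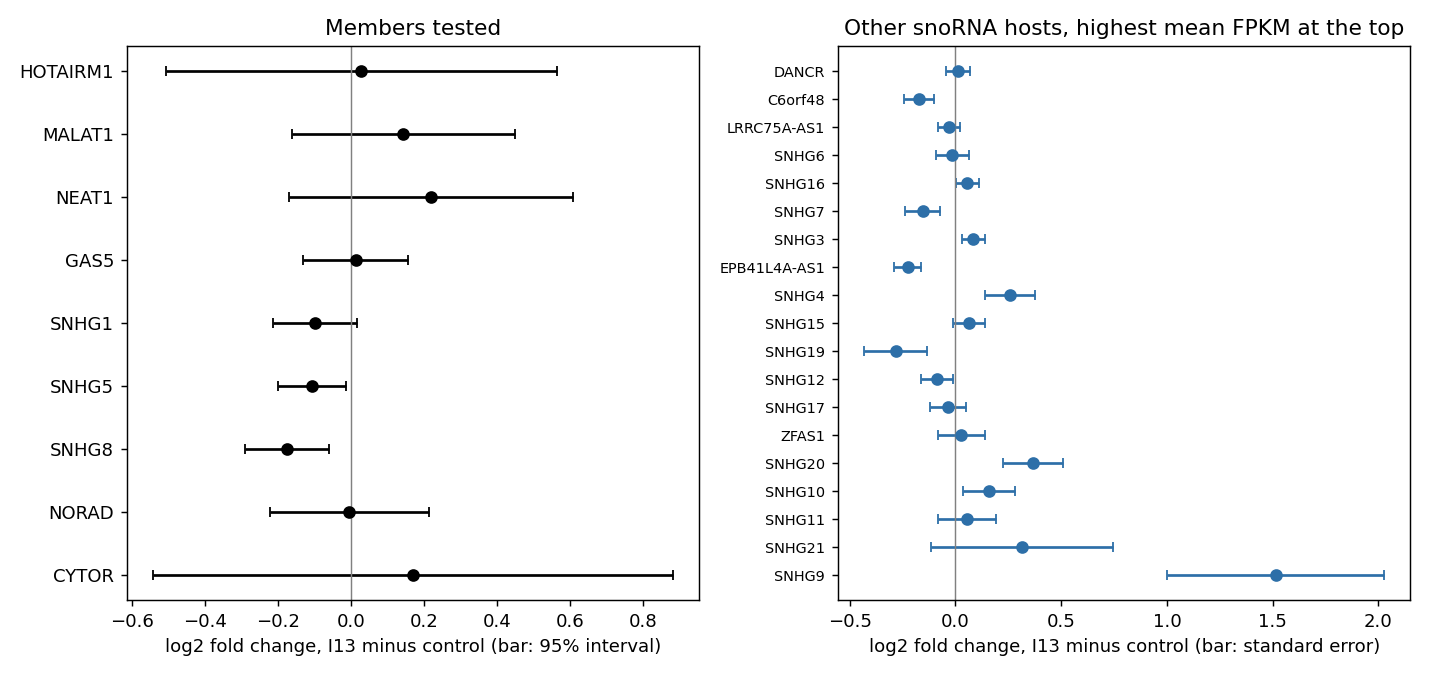
Log2 fold change, I13 minus control, on the log2(FPKM + 0.1) scale (x axes) for the 9 members tested with 95% intervals from limma (left) and for 19 other snoRNA hosts with standard errors (right). The intervals of SNHG5 and SNHG8 lie below 0 before adjustment, those of the other 7 members hold 0, and the other hosts lie on both sides of 0.

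Of the snoRNA hosts, SNHG1, SNHG5 and SNHG8 were slightly lower in I13, with no overlap between the groups, and GAS5 was not. Of the 9 members tested, 3 did not overlap between groups, all lower in I13, beside 9.52% of all genes without overlap and 4.64% without overlap and lower. None passed the adjusted p, and the levels in I13 were 0.935, 0.929 and 0.887 of those in control for SNHG1, SNHG5 and SNHG8. In RNA from a whole culture, fewer cells with a transcript and less of it per cell cannot be told apart.

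SNHG8, on chromosome 4 from 118278709 to 118279823 (plus strand), hosts SNORA24, which guides pseudouridylation. It was at 102, 94.3 and 98.4 FPKM in control and at 83.5, 89.0 and 88.3 FPKM in I13 replicates 1, 2 and 3. The lowest control library was above the highest I13 library. The means were 98.1 ± 3.62 (SD, n = 3) and 86.9 ± 3.00 (SD, n = 3), a log2 fold change of -0.17 ± 0.05 (SE) with an unadjusted p of 0.00896 and an adjusted p of 0.859 by limma. The unadjusted p was 0.0534 by limma without a variance trend. Its 4612 fragments in control and 3843 in I13 gave a ratio of 0.887 per depth with a 95% counting interval of 0.849 to 0.926. Its neighbour PRSS12, which ends 215 bases away on the other strand, was between 0.356 and 0.900 FPKM with a log2 fold change of 0.34, and NDST3 was at 0.0560 FPKM or less.

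SNHG5, on chromosome 6 from 85660950 to 85678748 (minus strand), hosts the SNORD50 snoRNAs. It was at 60.2, 59.7 and 60.0 FPKM in control and at 57.1, 55.1 and 55.0 FPKM in I13. The 3 control values were close together, and all I13 values were below them. Its log2 fold change was -0.11 ± 0.04 (SE), with an unadjusted p of 0.0325 and an adjusted p of 0.947 by limma, and by voom the unadjusted p was 0.119. SYNCRIP, its nearest coding gene, was at 0.06 on the log2 scale.

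SNHG1, on chromosome 11 from 62851988 to 62855914 (minus strand), hosts a cluster of box C/D snoRNAs that guide ribose methylation. It was at 29.7, 28.9 and 27.4 FPKM in control and at 26.6, 26.4 and 27.2 FPKM in I13. The gap between control replicate 3 and I13 replicate 3 was the narrowest of the 3 hosts. On the log2 scale the difference was -0.10 ± 0.05 (SE), with an unadjusted p of 0.0859 and an adjusted p of 0.962 by limma. It moved to -0.13 with an unadjusted p of 0.0192 once control replicate 3 was left out. SLC3A2, which starts 188 bases away on the other strand, and WDR74 had log2 fold changes of 0.03 and 0.00.

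GAS5, on chromosome 1 from 173863900 to 173868882 (minus strand), hosts another box C/D cluster and is named for its rise in growth arrest. It was at 86.0, 86.0 and 75.2 FPKM in control and at 83.5, 82.5 and 82.9 FPKM in I13. The I13 libraries lay within the range of the control libraries, which control replicate 3 made wide. The log2 fold change was 0.01 with a 95% interval of -0.13 to 0.16, and -0.05 without control replicate 3. GAS5-AS1 and ZBTB37, which overlap it on the other strand, were at most at 0.588 and 1.32 FPKM, and the neighbour SERPINC1 was at 0.0659 FPKM or less. The kit keeps the strand but the counting setting is not given, so reads of overlapping genes may not be told apart.

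The other snoRNA hosts lay on both sides of 0. Of 19 tested of 23 listed, 2 passed the unadjusted p as higher and 2 as lower, beside 5.14% of all genes tested. None passed the adjusted p, and the median log2 fold change was 0.03. EPB41L4A-AS1 was at 17.3, 17.2 and 15.4 FPKM in control and at 14.5, 13.8 and 14.3 in I13 (log2 fold change -0.23, unadjusted p 0.00926, limma). C6orf48, the host SNHG32, was at 167, 152 and 138 FPKM in control and at 133, 137 and 134 in I13 (-0.17, unadjusted p 0.0448, limma). SNHG20 was at 2.29, 3.03 and 3.04 FPKM in control and at 3.40, 3.36 and 4.05 in I13 (0.37, unadjusted p 0.0343, limma). In these 3 and in SNHG9, thus in 4 of the 19 hosts tested, the groups did not overlap, beside 9.52% of all genes tested. SNHG9 had a log2 fold change of 1.52 (unadjusted p 0.0210, limma), but rested on 0, 2 and 1 fragments in control and 6, 3 and 3 in I13. The most abundant of these hosts, DANCR (334, 317 and 351 FPKM in control and 334, 351 and 325 in I13) and LRRC75A-AS1 (log2 fold change -0.03), overlapped between groups.

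Genes that act on host transcripts or on snoRNAs gave 1 call before adjustment. Of 14 factors of nonsense-mediated decay, which degrades spliced host transcripts, 1 passed the unadjusted p, MAGOH of the exon junction complex with a log2 fold change of 0.13, and the median was -0.01. UPF1, SMG5 and EIF4A3 were at 0.01, -0.03 and 0.04. Of 9 core proteins of snoRNA particles none passed, with a median of 0.04 and the methyltransferase FBL at 0.04, SNU13 at 0.04 and NOLC1 at 0.06. Of 21 mature snoRNAs listed for the 4 hosts, 0 were matched by symbol to a single row of the deposited table, so they were not analysed here.

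MALAT1 and NEAT1 lie side by side on the plus strand of chromosome 11, from 65497688 to 65506516 and from 65422774 to 65445540, and their values varied alike over the libraries. MALAT1 was at 36.8, 41.8 and 37.7 FPKM in control and at 38.0, 38.7 and 53.0 FPKM in I13. NEAT1 was at 4.22, 5.64 and 4.74 FPKM in control and at 5.12, 4.94 and 7.11 FPKM in I13. In both, control replicate 2 was the highest control library, I13 replicate 3 was the highest of all, and the groups overlapped. Over the 6 libraries Pearson's r of the log2 values was 0.96 between these genes, the highest among the members tested. CYTOR, on another chromosome, was nearly as alike, with r of 0.92 to NEAT1 and 0.86 to MALAT1. I13 replicate 3 was its highest library too, and these values of r are a description only.

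The log2 fold change was 0.14 ± 0.13 (SE) for MALAT1, with an adjusted p of 0.983 by limma, and 0.22 ± 0.16 (SE) for NEAT1, also with an adjusted p of 0.983. The 95% intervals were -0.16 to 0.45 for MALAT1 and -0.17 to 0.61 for NEAT1. Without I13 replicate 3 these fold changes were -0.01 and 0.06, so both rested on that library. By voom NEAT1 had an unadjusted p of 0.0496 and an adjusted p of 0.930. FRMD8, a coding neighbour, was at -0.11.

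Genes for proteins of the bodies around these RNAs gave no call. Of 15 paraspeckle proteins 0 passed the unadjusted p and the median log2 fold change was 0.03, with NONO at -0.01, HNRNPK at 0.02 and HNRNPA1 at 0.02. Of 9 speckle proteins 0 passed and the median was 0.02, with the splicing factors SRSF1, SRSF2 and U2AF2 at -0.00, 0.04 and 0.06.

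HOTAIRM1, on chromosome 7 from 27095647 to 27100265 (plus strand), lies in the HOXA cluster. It was at 0.543, 0.584 and 0.646 FPKM in control and at 0.462, 0.721 and 0.656 FPKM in I13, from 14, 15 and 16 fragments and from 11, 18 and 15 fragments. The groups overlapped. The log2 fold change was 0.03 with a 95% interval of -0.50 to 0.56, and the ratio of summed fragments per depth was 1.04 with a 95% counting interval of 0.671 to 1.61, so a change within these limits was not detectable at this depth. Its neighbours SKAP2 and HOXA2 had log2 fold changes of -0.06 and 0.22. Of 11 HOXA genes 0 passed the unadjusted p, with HOXA5, HOXA10 and HOXA11 at -0.24, 0.01 and -0.08. Of 6 other myeloid or induced long noncoding RNAs tested of 12 listed none passed it, and MIR155HG, host of miR-155, CRNDE and MIR17HG were at 0.07, -0.06 and 0.03.

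NORAD, on chromosome 20 from 36045622 to 36050960 (minus strand), was at 54.2, 50.8 and 48.7 FPKM in control and at 55.3, 44.3 and 54.3 FPKM in I13. Its lowest libraries were control replicate 3 and I13 replicate 2, the pair that stood apart, and the groups overlapped. The fitted log2 fold change was -0.00 with a 95% interval of -0.22 to 0.21, 0.06 over the other 4 libraries and -0.14 within the pair. Its partners PUM2, KHDRBS1 and RBMX were at -0.07, 0.06 and -0.02, and 0 of 4 PUMILIO and NORAD-binding proteins passed the unadjusted p. The flanking genes CNBD2 and EPB41L1 were at 0.0603 FPKM or less.

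CYTOR, on chromosome 2 from 87454781 to 87636740 (plus strand), was at 0.336, 0.523 and 0.384 FPKM in control and at 0.473, 0.330 and 0.663 FPKM in I13. In the smallest whole solution this rests on 20, 31 and 22 fragments and on 26, 19 and 35 fragments. That solution has an exon length of 3456 bases where GENCODE 29 has 17693. As for LUCAT1, the fragments are fixed only up to a whole factor and could be more. The groups overlapped, and the lowest and the highest library were both I13 libraries. In the fit its log2 fold change was 0.17 with a 95% interval of -0.54 to 0.88, and without I13 replicate 3 it was -0.04. CYTOR has a near-identical copy, MIR4435-2HG (log2 fold change 0.02), and reads could be divided between them, so the level of CYTOR is uncertain. LINC01943, which overlaps it on the other strand, was at 2.09, 1.94 and 2.33 FPKM in control and between 1.11 and 1.91 in I13 (log2 fold change -0.49, unadjusted p 0.0416 and adjusted p 0.947, limma). The coding genes on either side, PLGLB1 and PLGLB2, were at 0.13 and 0.54 with overlap between the groups.

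The libraries that stood apart moved some members and not others. On the log2 scale, the mean of control replicate 3 and I13 replicate 2 minus that of the other 4 libraries was -0.36 for CYTOR, -0.21 for NORAD, -0.16 for NEAT1, -0.13 for MALAT1, -0.10 for GAS5 and 0.25 for HOTAIRM1, and it was -0.06 for SNHG1, -0.01 for SNHG5 and 0.03 for SNHG8. SNHG1, SNHG5 and SNHG8 were lower in I13 within the pair (-0.05, -0.12 and -0.14) and over the other 4 libraries (-0.12, -0.10 and -0.19). GAS5 was higher within the pair (0.13) and lower over the other 4 (-0.05), and HOTAIRM1, NORAD and CYTOR also differed in sign between these comparisons.

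**Figure D4:**
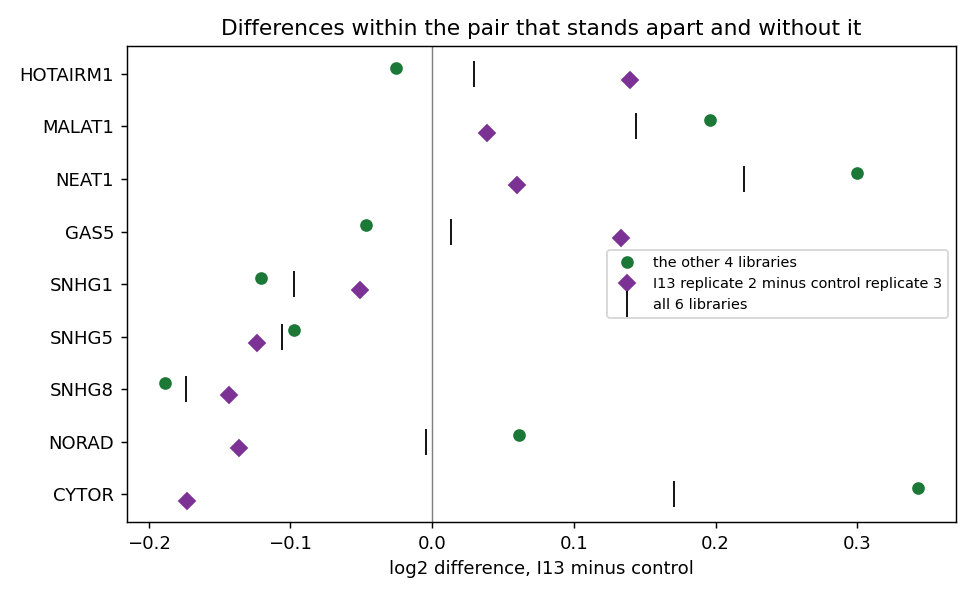
Log2 difference, I13 minus control (x axis), of the 9 members tested, over all 6 libraries (bars), over the other 4 libraries (green circles) and between the 2 libraries that stood apart (purple diamonds). The 3 hosts SNHG1, SNHG5 and SNHG8 are below 0 in each, MALAT1 and NEAT1 above 0 in each, and GAS5, HOTAIRM1, NORAD and CYTOR change sign.

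Other widely expressed long noncoding RNAs gave no call either. Of 9 tested of 14 listed, 0 passed the unadjusted p, the median log2 fold change was -0.03, and TUG1, OIP5-AS1 and TMPO-AS1 were at 0.09, -0.03 and 0.01. Over all 3163 long noncoding RNA genes tested, 107 were higher and 110 lower at an unadjusted p under 0.05, with 0 past the adjusted p by limma. Of the cell identity genes, CD33, a myeloid surface antigen, was higher (log2 fold change 0.20, unadjusted p 0.0166, limma) and CD3D, a T cell gene at 0.376 FPKM or less, was lower (-0.90, unadjusted p 0.0205, limma), without passing the adjusted p. MPO, ELANE and AZU1, which code for granule proteins, were at -0.12, -0.04 and -0.11, and EPCAM was at 0.01. The part of these genes in the members' values was not tested.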

How the data were processed

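The 6 libraries of Kasumi-1 cells were grouped by their labels into 3 control and 3 I13 libraries. The authors deposited 1 table of FPKM values for 32364 genes. The submitters' processing notes name Trimmomatic, HISAT2, Cufflinks, HTSeq and hg38, while no source used here gives their versions, the annotation or the strand setting. Exon lengths of GENCODE 29 gave whole fragments within 0.01 for 25773 of 27002 genes (95.4%), and 1322 others were given the smallest whole length that gave whole fragments within 0.001. Intervals and floors (3 fragments) cover counting error only.

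Genes with a mean of at least 0.1 FPKM were compared on log2(FPKM + 0.1) by limma 3.58.1 (R 4.3.3), two-sided, with a variance trend and Benjamini-Hochberg adjustment over all genes tested. LUCAT1 was below this minimum. Fold changes on this scale understate changes of low genes. limma's voom was run on recovered fragments (mean of at least 10), as an alternative. The limma and voom fits were tested on simulated data. Alternatives changed the pseudocount, filter, scaling, variance model, libraries and unit. Summaries used Python 3.11.15 and scipy 1.17.1.

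The members and lists were chosen with earlier results of these data known. Named genes are all members, the 3 most abundant genes of each list and those with an unadjusted p under 0.05, neighbours and overlapping genes of members with values, and the 5 genes most like LUCAT1. SPTB, AL139041.1, MIR4435-2HG, COL1A1, ALB and PPBP were added after values were seen. Values of some genes that this rule covers are left out of the text.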

Additional observations from a re-analysis of the deposited data

Results flagged for a closer look

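LUCAT1 lies below the minimum level of the fit and so outside the comparison over genes. It was flagged because it held 10 fragments in its smallest whole solution over the 3 I13 libraries and 0 over the control libraries. The gene was chosen by this pattern, so the flag follows from the choice and adds no support.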

How the results depend on the processing

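Each of the 9 members tested was refitted under up to 18 alternatives, and of 160 values 138 kept their direction and their side of an unadjusted p of 0.05. No member passed the adjusted p in any fit run. The sign turned 11 times, for differences near 0. These were MALAT1 (-0.011) and CYTOR (-0.036) without I13 replicate 3, GAS5 without control replicate 3 (-0.051) and over the 4 libraries apart from the pair (-0.047), HOTAIRM1 without control replicate 1 (-0.021), without I13 replicate 2 (-0.082), without I13 replicate 3 (-0.022) and over the 4 libraries (-0.026), and NORAD without control replicate 1 (0.037), without I13 replicate 2 (0.098) and over the 4 libraries (0.061). With a library left out, the log2 fold change lay between -0.011 and 0.228 for MALAT1, -0.082 and 0.192 for HOTAIRM1, -0.051 and 0.046 for GAS5, -0.062 and 0.098 for NORAD, and -0.036 and 0.378 for CYTOR. SNHG8 was between -0.20 and -0.14, with unadjusted p between 0.00265 and 0.0534, and SNHG5 passed the unadjusted p in 12 of 18 alternatives.

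The number of members past the unadjusted p was 1 with a minimum of 1 FPKM, 0 without a variance trend, and between 1 and 3 with a library left out. The number of genes past it was 582 with a minimum of 1 FPKM, where 11517 genes were tested, 1607 over 4 libraries and between 784 and 1295 with a library left out. Past the adjusted p there were 9 genes without a trend, 5 by voom, 87 by voom with a pair term and 0 with any library left out. The cause of these shifts was not tested.

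With the replicate number as a block, 1 member (SNHG8) and 862 genes passed the unadjusted p. The deviations of same-numbered libraries from their group means had r of 0.32, -0.379 and -0.297. The 2 libraries that stood apart, control replicate 3 and I13 replicate 2, bear different numbers and can set these signs alone. These values therefore cannot decide whether the numbers pair the samples.

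The ratio of LUCAT1 to the floor was also taken under choices added after the data had been seen. It was 21.3-fold with the larger fragment solution, 1.84-fold over 4 libraries and from 2.35-fold to 4.17-fold with a library left out. The floor stayed at 3 fragments throughout, so leaving out a control library lowers this ratio with no change in the fragments of LUCAT1. Depth limits LUCAT1, HOTAIRM1 and CYTOR most, with the fragments of LUCAT1 and CYTOR taken from their smallest whole solutions.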
